A study of Mus musculus with 4 samples.

Results

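RNA-poor Paneth cells were the cells of mouse small-intestinal crypts that carried Paneth transcripts above those of any other cell class but held fewer than 5000 transcript molecules in all. They numbered 635 of 29731 cells. Cells with under 500 detected genes or over 20% mitochondrial UMIs were set aside first. UMIs, unique molecular identifiers, count captured transcripts after PCR copies are merged. Each of 7 cell classes then got a score per cell, the mean of the standardised expression of 3 genes, and the Paneth score (Lyz1, Defa24 and Ang4) had to be the highest and at least 1. Cells that met this rule with 5000 UMIs or more, here called RNA-rich, numbered 2593. Members were thus chosen by measured values, the 21 genes of the scores and the UMI total. Both sets are ranges of a score and of a UMI total, not types found by clustering. The members just inside the UMI bound had 4998 UMIs, and the first cell outside it had 5016. The score just inside its bound was 1.00, and just outside it was 0.997.

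There were 2 libraries labelled 2D (2D-1 and 2D-2) and 2 labelled 0D (0D-1 and 0D-2). The series compares epithelial cells of mice after and before sleep deprivation, and 2D and 0D are read here as those groups in that order, although the meaning of D is not written out in the labels. Crypts were freed with 10 mM EDTA, strained at 70 µm and sequenced with a 10x Genomics 3′ kit. The labels name no strain, age or genotype and do not tie a library to an animal. The p-values therefore measure only the spread between libraries, which may be technical.

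Paneth cells sit at the base of the crypt beside the stem cells. They fill large granules with alpha-defensins, lysozyme and other antimicrobial proteins, release them into the lumen, and provide Wnt, Notch and EGF-family ligands to the neighbouring stem cells. Their fate needs Wnt signalling and the transcription factors Atoh1, Sox9 and Spdef, and they share a secretory progenitor with mucus-making goblet cells.

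Members were more frequent in 2D than in 0D. They numbered 197 in 2D-1 and 322 in 2D-2, against 32 in 0D-1 and 84 in 0D-2. As a share of all cells kept this was 2.80% (95% exact binomial interval 2.43 to 3.22) in 2D-1 and 4.03% (3.61 to 4.49) in 2D-2, against 0.422% (0.289 to 0.595) in 0D-1 and 1.18% (0.941 to 1.46) in 0D-2. Both 2D libraries lay above both 0D libraries, by 2.62 percentage points on average. A two-sided exact test that permutes the libraries gave p = 0.33, which is the smallest p that 2 against 2 libraries allow. Intervals cover counting error only.

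All Paneth-rule cells, RNA-poor and RNA-rich together, were also more numerous in 2D, with 901 and 1370 cells against 461 and 496 in 0D. Members made up 21.9% and 23.5% of them in 2D-1 and 2D-2, against 6.94% and 16.9% in 0D-1 and 0D-2 (exact permutation p = 0.33). The gap was 5.75 points without 0D-1 and 4.93 with scores standardised within each library, which also gave a gap of 1.32 points as a share of all cells kept. Shallow cells were more frequent in 2D outside the Paneth rule as well. Cells under 5000 UMIs were 22.3% and 23.4% of all other cells in 2D, against 10.1% and 12.1% in 0D. The gap was 11.7 percentage points there and 10.7 among Paneth-rule cells. Among goblet-class cells, 32.1% and 20.3% in 2D were under 5000 UMIs, against 10.2% and 9.38% in 0D. Among enteroendocrine-class cells, 29.3% and 54.8% in 2D were under it, against 35.7% and 32.9% in 0D, so these overlapped. How far the depth of the libraries sets the share of members was not tested. The median over all cells kept was 11117 and 9247.5 UMIs in 2D and 12115.5 and 13340.5 in 0D.

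The share among Paneth-rule cells turned round at a higher score. With a Paneth score of at least 2, the RNA-poor cells were 31 of 566 in 2D-1 and 86 of 862 in 2D-2, against 25 of 373 in 0D-1 and 50 of 353 in 0D-2. The mean share was then 2.71 percentage points lower in 2D (exact permutation p = 0.667). At a score of at least 1.5 it was 5.67 points higher in 2D, with overlapping libraries (exact permutation p = 0.667). Of all cells kept, members with a score of at least 1.5 were 1.45% and 2.55% in 2D, against 0.343% and 0.883% in 0D, which did not overlap (exact permutation p = 0.33). Members with a score of at least 2 were 0.441% and 1.08% in 2D, against 0.330% and 0.701% in 0D, which overlapped. The bound of 2 was chosen after seeing the data.

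**Figure D1:**
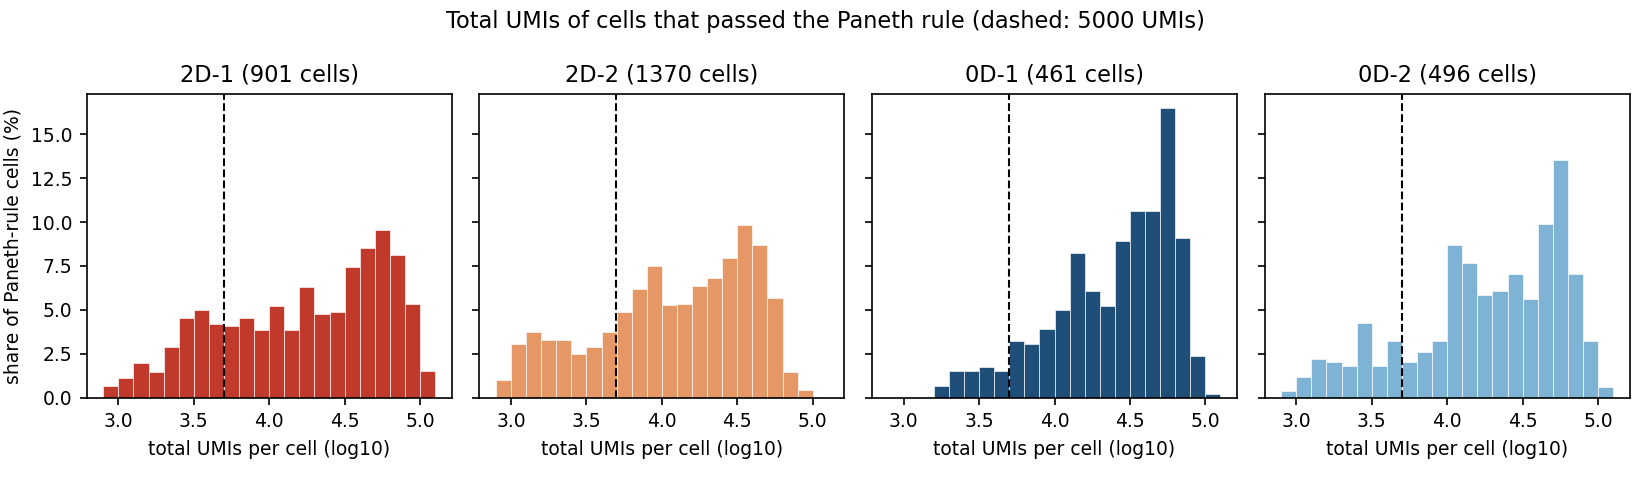
Total UMIs per Paneth-rule cell on a log10 axis, as the percent of each library's Paneth-rule cells in each bin, with 2D libraries before 0D libraries and a line at the bound of 5000 UMIs. Below the bound lie 197 and 322 cells of 2D-1 and 2D-2, against 32 and 84 of 0D-1 and 0D-2.

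Members were shallow by the rule and differed from RNA-rich cells in more than depth. Their median was 2979 UMIs in 2D-1 and 2092.5 in 2D-2, against 3127 in 0D-1 and 2603.5 in 0D-2, and RNA-rich medians ran from 21832.5 to 33735. Detected genes had a median of 1109 and 742 in 2D, against 730 and 667.5 in 0D. At equal depth, with every cell thinned to 1000 UMIs, members showed 515 and 479.5 genes in 2D and 291.5 and 341 in 0D. RNA-rich cells thinned in the same way showed 217 and 198 in 2D and 198 and 201.5 in 0D, and other cells under 5000 UMIs showed 562 to 581.5. At 1000 UMIs the members therefore lay between the RNA-rich cells and the other shallow cells, with the 2D members nearer to the shallow cells. Thinning left out 6 and 14 members of 2D and 0 and 2 of 0D, which had fewer than 1000 UMIs.

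The mitochondrial share of UMIs, a sign of damaged cells when high, did not separate the groups. Its median over members was 10.9% in 2D-1 and 1.97% in 2D-2, against 9.18% in 0D-1 and 8.69% in 0D-2. The library 2D-2 stood apart as the only low one. The mean difference was 2.49 percentage points lower in 2D (exact permutation p = 1), and without 2D-2 it was 1.98 points higher. Medians of RNA-rich cells lay between 0.790% and 1.36%.

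The label was checked against Paneth genes that the rule did not use. Thinned to 1000 UMIs, Itln1, an intelectin that binds microbial sugars, had a UMI in 99.5% and 98.4% of members in 2D and in 100% and 97.6% in 0D. It also had one in 40.5% to 55.1% of goblet-class cells and 43.3% to 64.2% of other cells under 5000 UMIs. Mptx2, a mucosal pentraxin, was seen in 76.4% and 73.1% of members in 2D and 78.1% and 74.4% in 0D, against 4.29% to 16.6% of goblet-class cells and 11.4% to 29.5% of other cells under 5000 UMIs. Clps, the colipase that lets pancreatic-type lipase work on fat droplets, was seen in 43.5% and 54.2% of members in 2D and 90.6% and 57.3% in 0D. Clps was seen in 83.7% to 91.8% of RNA-rich cells, in 6.87% to 11.6% of goblet-class cells and in 5.59% to 13.6% of other cells under 5000 UMIs. In every library each of these 3 genes was seen in a larger share of members than of goblet-class or other shallow cells, with all cells at 1000 UMIs. Defa24, a rule gene, was seen in 89.9% to 98.9% of other cells under 5000 UMIs at that depth. Its presence alone thus does not mark a Paneth cell. In those other cells Defa24 averaged 12.9 and 12.6 UMIs in 2D, against 5.50 and 6.82 in 0D. Defa30, outside the rule, averaged 3.88 and 3.76 there in 2D, against 1.46 and 2.51 in 0D. Paneth transcripts outside the Paneth rule were thus higher in 2D for both genes. Their part in the share and the scores of members was not tested. Markers of immune and stromal cells made up 0.000693% and 0.00445% of members' UMIs in 2D, against 0.000988% and 0.00132% in 0D.

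Members of 2D lay nearer to the score bound and nearer to goblet cells. The Paneth score, which the rule used, had a median of 1.54 and 1.64 in 2D, against 2.59 and 2.20 in 0D. Scores under 1.5 were held by 95 and 118 members in 2D, against 6 and 21 in 0D. The second-highest class was goblet in 122 members of 2D-1 (61.9%) and 201 of 2D-2 (62.4%), against 11 of 0D-1 (34.4%) and 21 of 0D-2 (25%). Another class score also reached 1 in 46 and 84 members of 2D, against 3 and 6 of 0D. Goblet was the second-highest class with a score of at least 0.5 in 39.1% and 39.8% of members in 2D, against 12.5% and 9.52% in 0D. These scores belong to the rule and are a description. No doublet caller was run, and the part of droplets with more than 1 cell was not tested. As a set, members of both groups thus carried the Paneth transcripts checked above more often than other shallow cells. In members scoring under 1.5, goblet genes outside the rule took more UMIs than defensins outside it in every library, as given below. Spink4, also a Paneth gene, is among those goblet genes. For these members the name is less certain.

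Alpha-defensins are small cationic peptides that break microbial membranes, and their genes form a cluster of near-identical copies on mouse chromosome 8. Reads can be split between copies, so the count of any single copy is uncertain and the family sum is firmer. Of 27 alpha-defensin genes matched in the files, Defa24 belongs to the rule. The other 26 made up 7.29% and 11.5% of members' UMIs in 2D-1 and 2D-2, against 21.3% and 18.2% in 0D-1 and 0D-2. The groups did not overlap, and the 2D mean was 10.4 percentage points lower (exact permutation p = 0.33). In RNA-rich cells the same 26 genes took 35.6% and 33.9% in 2D, against 34.0% and 34.2% in 0D, and the 4 values lay close together. The test of the difference between the sets is given below. In the goblet class, taken here as a measure of background, they took 0.434% and 0.321% in 2D, against 0.137% and 0.169% in 0D.

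The same held cell by cell. The median member gave 5.61% and 6.18% of its UMIs to the 26 defensin genes in 2D, against 20.2% and 16.4% in 0D. Members with at least 20% defensin UMIs were 10 (5.08%) and 49 (15.2%) in 2D, against 16 (50%) and 33 (39.3%) in 0D. Defensin-rich members were therefore present in every library, and were a smaller share in both 2D libraries. From 3500 UMIs up to the bound the medians were 3.84% and 9.09% in 2D, against 27.9% and 23.3% in 0D. Under 2000 UMIs they were 7.48% and 5.83% in 2D, against 17.7% (3 cells) and 5.37% in 0D, so the shallowest members overlapped.

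The gap between groups went with the Paneth score. In members with a score of at least 2 the 26 genes took 18.9% and 24.0% in 2D, against 24.6% and 24.0% in 0D. In members with a score under 1.5 they took 3.41% and 3.59% in 2D, against 4.13% and 3.29% in 0D. Within each of these score ranges the 2D and 0D libraries lay close together or overlapped. Defa24 is a member of the family and enters the score, so the family share and the score are not independent measures.

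**Figure D2:**
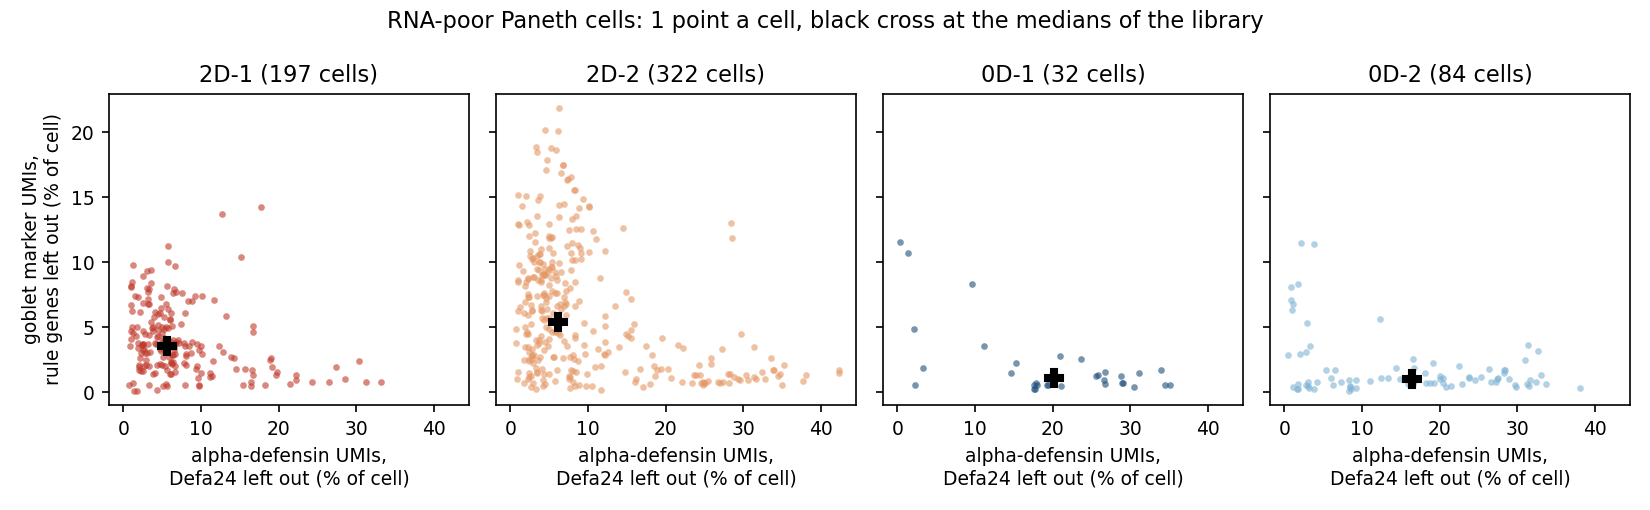
Each point is 1 RNA-poor Paneth cell, placed by the percent of its UMIs from 26 alpha-defensin genes (Defa24 left out) and from 11 goblet genes outside the rule, in a panel per library with 2D panels first and a black cross at the library's medians. Cells with at least 20% defensin UMIs are 10 and 49 in 2D-1 and 2D-2, against 16 and 33 in 0D-1 and 0D-2.

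Single defensin copies ran the same way as the sum. Defa30, the second most abundant gene of the members, had 21394 and 38180 CPM (its UMIs per 1000000 UMIs summed over the members of a library) in 2D, against 66521 and 66599 CPM in 0D. Defa23 had 376 and 576 CPM in 2D, against 1690 and 1155 CPM in 0D. For both genes the 2D libraries lay below both 0D libraries, although libraries of the same group also differed. Defa21 had 7082 and 6981 CPM in 2D, against 21739 and 6416 CPM in 0D, and Defa22 had 6129 and 6546 CPM in 2D, against 22450 and 5715 CPM in 0D. These 2 copies were high in 0D-1 alone, and 0D-2 lay at the level of 2D or under it.

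Genes of members were tested between 2D and 0D with edgeR's quasi-likelihood test on UMIs summed per library, with TMM scaling and Benjamini-Hochberg adjustment over 3848 genes. It called 13 genes at an adjusted p of 0.05, 3 higher and 10 lower in 2D, which is 0.338% of the genes tested (0.078% higher and 0.26% lower). At an unadjusted p under 0.05 there were 322. The median log2 change of all genes was 0.03 under TMM and 0.64 when sums were scaled by their totals alone; the TMM factors ran from 0.749 to 1.42. Scaled by totals, 13 genes were higher (0.338%) and 1 was lower (0.026%), so the split of directions rests on the scaling. Changes below are TMM values, to be read against that shift. When 2D-1 was left out 172 genes were called, and 100 when 2D-2 was. When 0D-1 was left out 2 were called, and 0 when 0D-2 was (edgeR, 265 at an unadjusted p under 0.05), and each of the 12 called genes other than a gene model passed in 1 or 2 of these 4 fits.

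All 21 alpha-defensin genes tested outside the rule had a log2 change below 0, with a median of −1.66 (−1.02 by totals) beside 0.03 (0.64) for all genes. Of these, 18 had an unadjusted p under 0.05 and 1 was called lower, against 0.26% of all genes called lower. That gene, Defa32, fell by 1.99 ± 0.53 (SE) on the log2 scale (edgeR adjusted p = 0.049), with 81.5 and 66.1 CPM in 2D against 296 and 101 CPM in 0D. It lies at chr8:21529032-21530012 on the plus strand (GRCm38). By totals it was not called (edgeR adjusted p = 0.21), and without 0D-1 its log2 change was −0.95. In 0D-1, 15 of its 30 UMIs lay in 1 cell, and in 0D-2 10 of 23 did. With a score of at least 2 the median of the list was −0.61, and with scores standardised within each library it was −0.45.

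The test of the difference between members and RNA-rich cells gave no defensin call. The set-by-group term was below 0 for 23 of 23 defensin genes tested, with a median of −1.19 beside 0.28 for all genes and 0 calls (edgeR). Over 10902 genes the term called 2 genes, 0.0183% (4 genes, 0.0367%, by totals), and 697 had an unadjusted p under 0.05.

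Wnt signalling, through TCF factors, is known to drive the Paneth fate, and its part in the levels given here was not tested. For the Paneth secretory genes Defa30, Pnliprp2 and Itln1, which lay lower in both 2D libraries, the promoters are shown. They are the 250 bases before the start of the gene, read on the gene's strand from RefSeq on GRCm38.p6. Capitals mark CTTTGA, the core of TCF sites, or its reverse TCAAAG on the other strand. Defa30 lies at chr8:21134400-21134649 on the plus strand, Pnliprp2 at chr19:58759473-58759722 on the plus strand and Itln1 at chr1:171535295-171535544 on the minus strand.
Defa30: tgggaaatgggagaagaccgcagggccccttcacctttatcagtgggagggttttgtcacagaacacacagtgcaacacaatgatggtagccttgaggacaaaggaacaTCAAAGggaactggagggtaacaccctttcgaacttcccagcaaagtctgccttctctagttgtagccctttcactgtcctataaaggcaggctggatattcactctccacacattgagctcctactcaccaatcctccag
Pnliprp2: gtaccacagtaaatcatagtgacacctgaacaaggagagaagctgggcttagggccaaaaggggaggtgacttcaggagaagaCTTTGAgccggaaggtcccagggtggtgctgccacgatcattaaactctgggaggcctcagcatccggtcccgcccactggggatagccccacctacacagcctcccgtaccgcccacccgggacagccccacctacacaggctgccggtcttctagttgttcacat
Itln1: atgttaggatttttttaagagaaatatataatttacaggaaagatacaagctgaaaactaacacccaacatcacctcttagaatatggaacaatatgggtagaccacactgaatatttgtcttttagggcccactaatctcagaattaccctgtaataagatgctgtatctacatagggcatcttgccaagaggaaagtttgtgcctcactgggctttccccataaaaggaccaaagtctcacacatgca
Defa30 and Pnliprp2 hold 1 match each and Itln1 holds 0. Of 27025 RefSeq promoters of this length, 3797 (14.05%) hold a match, and of 30 matched promoters of alpha-defensin and other Paneth secretory genes, 17 (56.7%) do. The defensin copies share much of their sequence and are not independent, and a match is no proof of binding.

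Granule and secretory products other than defensins were split. Of 11 tested outside the rule, 3 had a log2 change above 0 and 8 below. The median was −0.94 (−0.35 by totals), beside 0.03 (0.64) for all genes. In this list 1 gene was called lower, against 0.26% of all genes. That gene was Habp2 (chr19:56287137-56320822, plus strand, GRCm38), which encodes a secreted hyaluronan-binding serine protease, with 52.0 and 59.8 CPM in 2D against 148 and 176 CPM in 0D. Its log2 change was −2.13 ± 0.53 (SE; edgeR adjusted p = 0.025, and 0.16 by totals). Pnliprp2, a lipase that acts on galactolipids and other lipids, had 153 and 335 CPM in 2D against 830 and 582 CPM in 0D (edgeR adjusted p = 0.051). Itln1 had 12228 and 20719 CPM in 2D against 35879 and 31597 CPM in 0D, and Mptx2 had 2452 and 3340 CPM in 2D against 5603 and 7007 CPM in 0D. Only Habp2 of these 4 genes passed the test.

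Other secretory genes differed less or lay higher in 2D. Clps had 787 and 1689 CPM in 2D against 1789 and 1442 CPM in 0D, and its groups overlapped. Mmp7, the protease that activates pro-defensins in mice, had 2442 and 2223 CPM in 2D against 2806 and 2474 CPM in 0D, a log2 change of −0.80 ± 0.61 (SE; edgeR adjusted p = 0.79). Both 2D libraries lay just below both 0D libraries. Its level in RNA-rich cells was 2903 and 2603 CPM in 2D against 2333 and 2806 CPM in 0D. The antibacterial lectin Reg3b had 2310 and 2783 CPM in 2D against 682 and 520 CPM in 0D, a log2 change of 1.49 ± 0.60 that was not called under TMM (edgeR adjusted p = 0.38) and was called by totals (log2 2.12, edgeR adjusted p = 0.035). Its relative Reg3g had 2449 and 2618 CPM in 2D against 1472 and 1177 CPM in 0D and was not called under either scaling. Summed over 14 genes outside the rule, the list took 4.79% and 6.98% of UMIs in 2D, against 6.66% and 6.09% in 0D, which overlapped.

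The 3 Paneth genes of the rule are given as a description. Defa24 had 80832 and 117127 CPM in 2D against 194810 and 161003 CPM in 0D. Lyz1, the lysozyme of Paneth granules, had 14165 and 21129 CPM in 2D against 44861 and 34517 CPM in 0D. Ang4, a secreted antimicrobial ribonuclease, had 1565 and 2608 CPM in 2D against 5751 and 3903 CPM in 0D. All 3 were lower in both 2D libraries, as the score medians already show.

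Goblet transcripts ran the other way in members. The 11 goblet genes outside the rule, among them Spink4, which is also on the list of Paneth secretory genes, took 4.21% and 6.38% of members' UMIs in 2D, against 2.18% and 1.99% in 0D. In RNA-rich cells they took 2.15% and 2.81% in 2D, against 2.27% and 2.67% in 0D, and in other cells under 5000 UMIs 3.89% and 4.27% in 2D, against 3.50% and 3.03% in 0D. The groups did not overlap in members (exact permutation p = 0.33) and overlapped in RNA-rich cells. In other cells under 5000 UMIs they did not overlap either, and 2D was again higher, so the direction was not particular to members. In members with a score of at least 2 the share was still 2.75% and 3.84% in 2D, against 1.44% and 1.14% in 0D, while under a score of 1.5 it was 4.49% and 7.24% in 2D, against 5.86% and 4.68% in 0D. Median shares per cell were 3.59% and 5.44% in 2D, against 1.09% and 1.00% in 0D.

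Gene by gene, 9 of 10 goblet genes tested had a log2 change above 0 in members, with a median of 0.98 (1.66 by totals) beside 0.03 (0.64) for all genes, and 0 were called under TMM. Zg16, a lectin of the mucus that binds Gram-positive bacteria, had 4413 and 12146 CPM in 2D against 1611 and 1182 CPM in 0D. Its log2 change was 2.03 ± 0.65 (SE; edgeR adjusted p = 0.175 under TMM and 0.0055 by totals), and 0.82 without 2D-2 (edgeR adjusted p = 0.22). Agr2, a disulfide isomerase needed to make mucin, had 3373 and 10440 CPM in 2D against 1364 and 2262 CPM in 0D. Fcgbp, a mucin-like protein of the mucus, had 9408 and 5744 CPM in 2D against 3290 and 2007 CPM in 0D. With cells thinned to 1000 UMIs, Fcgbp was seen in 83.2% and 81.2% of members in 2D and 56.3% and 39.0% in 0D, against 28.6% to 35.4% of RNA-rich cells. In other cells under 5000 UMIs it was seen in 72.3% and 57.0% in 2D and 51.9% and 46.4% in 0D. The set-by-group term was above 0 for 11 of 11 goblet genes, with a median of 1.65 beside 0.28 for all genes and 0 calls (edgeR). Muc2 and Tff3, rule genes of the goblet score, had 8006 and 3957 CPM and 16685 and 16358 CPM in 2D, against 2836 and 2373 CPM and 7223 and 6465 CPM in 0D.

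**Figure D3:**
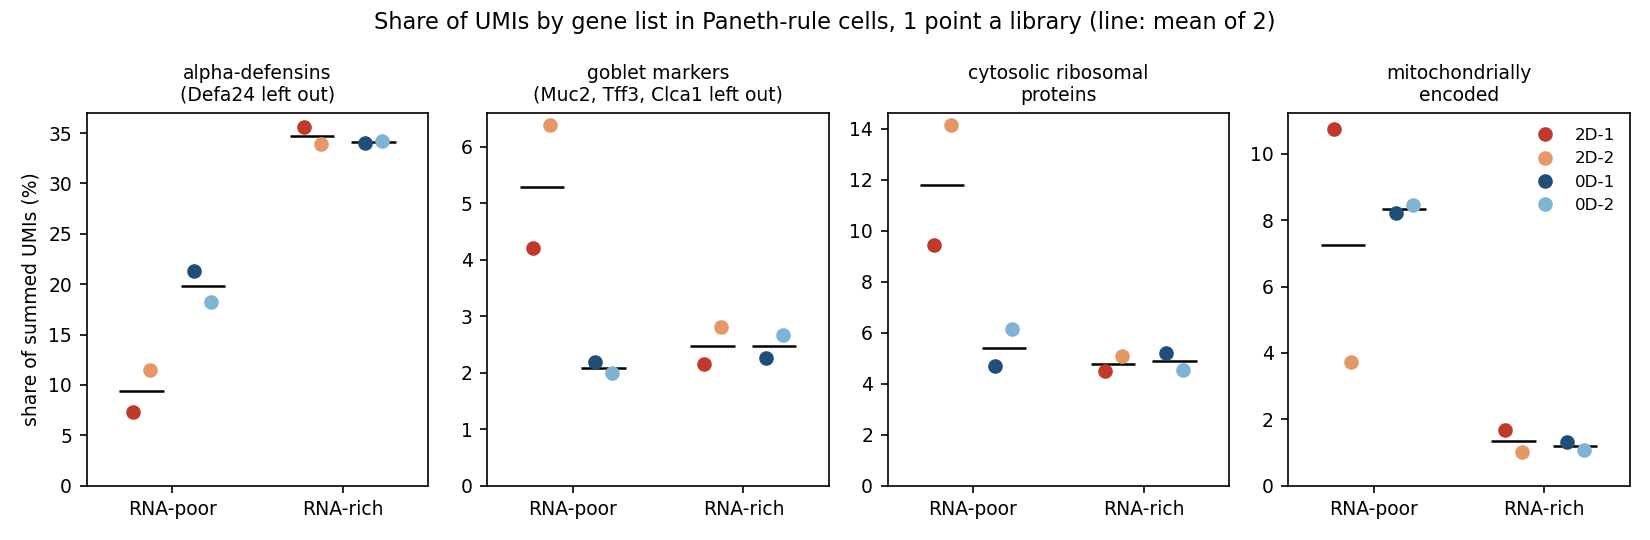
Percent of the summed UMIs taken by groups of genes in RNA-poor and in RNA-rich Paneth cells, 1 point per library, with 2D left of 0D and a bar at the mean of 2 libraries. In RNA-poor cells the defensins (Defa24 left out) are at 7.29% and 11.5% in 2D against 21.3% and 18.2% in 0D, while in RNA-rich cells all 4 libraries lie between 33.9% and 35.6%.

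Genes of protein synthesis and folding took a larger part of members' UMIs in 2D. The 83 cytosolic ribosomal protein genes took 9.43% and 14.1% in 2D, against 4.68% and 6.15% in 0D (exact permutation p = 0.33). In RNA-rich cells they took 4.49% and 5.07% in 2D, against 5.20% and 4.55% in 0D, and in other shallow cells 9.95% to 13.8%. In members with a score of at least 2 they took 5.30% and 7.11% in 2D, against 3.22% and 3.39% in 0D. Genes of secretory protein folding and ER stress took 1.22% and 2.06% in 2D, against 0.617% and 0.788% in 0D. Shares of one sum depend on each other, so a lower defensin share raises the others.

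Relative to all genes the folding genes were near 0. Of 29 tested, 16 had a log2 change above 0 and 13 below, with a median of 0.08 (0.69 by totals) and 0 called (edgeR, 2 at an unadjusted p under 0.05). Manf, a secreted ER chaperone, had 262 and 571 CPM in 2D against 88.9 and 128 CPM in 0D (edgeR adjusted p = 0.36). Xbp1, the factor of the unfolded protein response that Paneth cells need, had 234 and 201 CPM in 2D against 119 and 181 CPM in 0D (edgeR adjusted p = 0.97). Of 16 autophagy and granule genes tested, 6 were above 0 and 10 below. Only Atg7 was called lower, against 0.26% of all genes called lower. Atg7, an enzyme of autophagosome formation on which normal Paneth granules depend in mice, had 29.5 and 16.5 CPM in 2D against 69.2 and 83.8 CPM in 0D. Its log2 change was −2.38 ± 0.58 (SE; edgeR adjusted p = 0.022, and 0.16 by totals), and it rests on 17 and 13 UMIs in 2D and 7 and 19 UMIs in 0D.

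Fate regulators did not differ by the test. Of 12 tested, 5 were above 0 and 7 below, with a median of −0.06 (0.58 by totals) and 0 called (edgeR, 2 at an unadjusted p under 0.05). Sox9, which Paneth cells need to form, had 201 and 111 CPM in 2D against 208 and 176 CPM in 0D. Ephb3, the receptor that keeps Paneth cells at the crypt base, had 50.3 and 63.6 CPM in 2D against 88.9 and 132 CPM in 0D, a log2 change of −1.56 ± 0.53 (SE; edgeR adjusted p = 0.24). Spdef had 241 and 139 CPM in 2D against 69.2 and 88.2 CPM in 0D (edgeR adjusted p = 0.825). Ephb3 lay lower and Spdef higher in both 2D libraries, without passing the test.

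Ligands for the stem cells had few counts in members. Of 15 listed, 4 had enough counts to be tested, and 0 were called (edgeR, 2 at an unadjusted p under 0.05). Wnt3 had 29.5 and 34.3 CPM in 2D against 39.5 and 57.3 CPM in 0D (edgeR adjusted p = 0.57). The Notch ligand Dll4 had 26.0 and 24.2 CPM in 2D against 39.5 and 70.6 CPM in 0D (edgeR adjusted p = 0.205). Both lay lower in both 2D libraries, within the spread that the test allows.

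Genes called higher in 2D members were few and each rested on part of the data. Irf7 (chr7:141262706-141266481, minus strand, GRCm38), a master factor of the type I interferon response, had 614 and 45.8 CPM in 2D against 49.4 and 13.2 CPM in 0D (log2 2.89 ± 0.66 SE, edgeR adjusted p = 0.0077). It was high in 2D-1 alone, also in RNA-rich cells (103 CPM there, against 10.9 to 13.9 CPM in the other libraries), and without 2D-1 its log2 change was 0.22. Isg15, an interferon-induced ubiquitin-like protein, had 182 and 31.8 CPM in 2D against 0 and 8.82 CPM in 0D (log2 3.42 ± 0.88 SE, edgeR adjusted p = 0.034). It passed the low-count filter through the 2D libraries only. The interferon list took 0.227% and 0.0426% of UMIs in 2D, against 0.0217% and 0.0273% in 0D. Of its 9 genes tested, 8 were above 0 and 2 were called higher, against 0.078% of all genes called higher. The list's median was 1.11 (1.83 by totals), beside 0.03 (0.64) for all genes, and was 0.22 without 2D-1. The list as a whole was thus high in 2D-1.

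Sst (chr16:23889573-23890958, minus strand, GRCm38), the hormone of enteroendocrine D cells, was the other gene called higher (log2 3.27 ± 0.74 SE, edgeR adjusted p = 0.0075). Members held 86 Sst UMIs in 2D-1, of which 80 lay in 1 cell, and 147 in 2D-2, of which 52 lay in 1 cell, against 0 in 0D-1 and 4 in 0D-2. A few cells thus carried most of the Sst count. Sst also passed the low-count filter through the 2D libraries only. Markers of enteroendocrine cells, rule genes included, took 0.0490% and 0.0899% of members' UMIs in 2D, against 0.0583% and 0.0172% in 0D, and their part in the Sst result was not tested.

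The other genes called lower in 2D members were all of low abundance. Ints6l, Sorbs2, Trp53inp1, Lamb1, Samd5 and Cdc42bpa had log2 changes between −3.01 (Ints6l) and −2.04 (Samd5), and none was called when sums were scaled by totals. In 2D, Ints6l had 5 and 10 UMIs, Sorbs2 9 and 7, Lamb1 13 and 13, and Cdc42bpa 14 and 8. Ints6l, Sorbs2, Lamb1 and Cdc42bpa passed the low-count filter only through the 0D libraries, where they are high. Their calls are thus tied to that filter and are no separate support for a fall in 2D. With no filter on low counts the fit called 0 genes. Trp53inp1, a p53-induced protein that takes part in autophagy, had 46.8 and 26.7 CPM in 2D against 138 and 123 CPM in 0D (edgeR adjusted p = 0.0075). Lamb1, a laminin chain, had 22.5 and 16.5 CPM in 2D against 79.1 and 66.1 CPM in 0D (edgeR adjusted p = 0.020). The only gene also called lower by totals was 2010007H06Rik, an unnamed gene model, with 6.93 and 3.82 CPM in 2D against 79.1 and 61.7 CPM in 0D. In this comparison it too passed the low-count filter only through the 0D libraries.

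**Figure D4:**
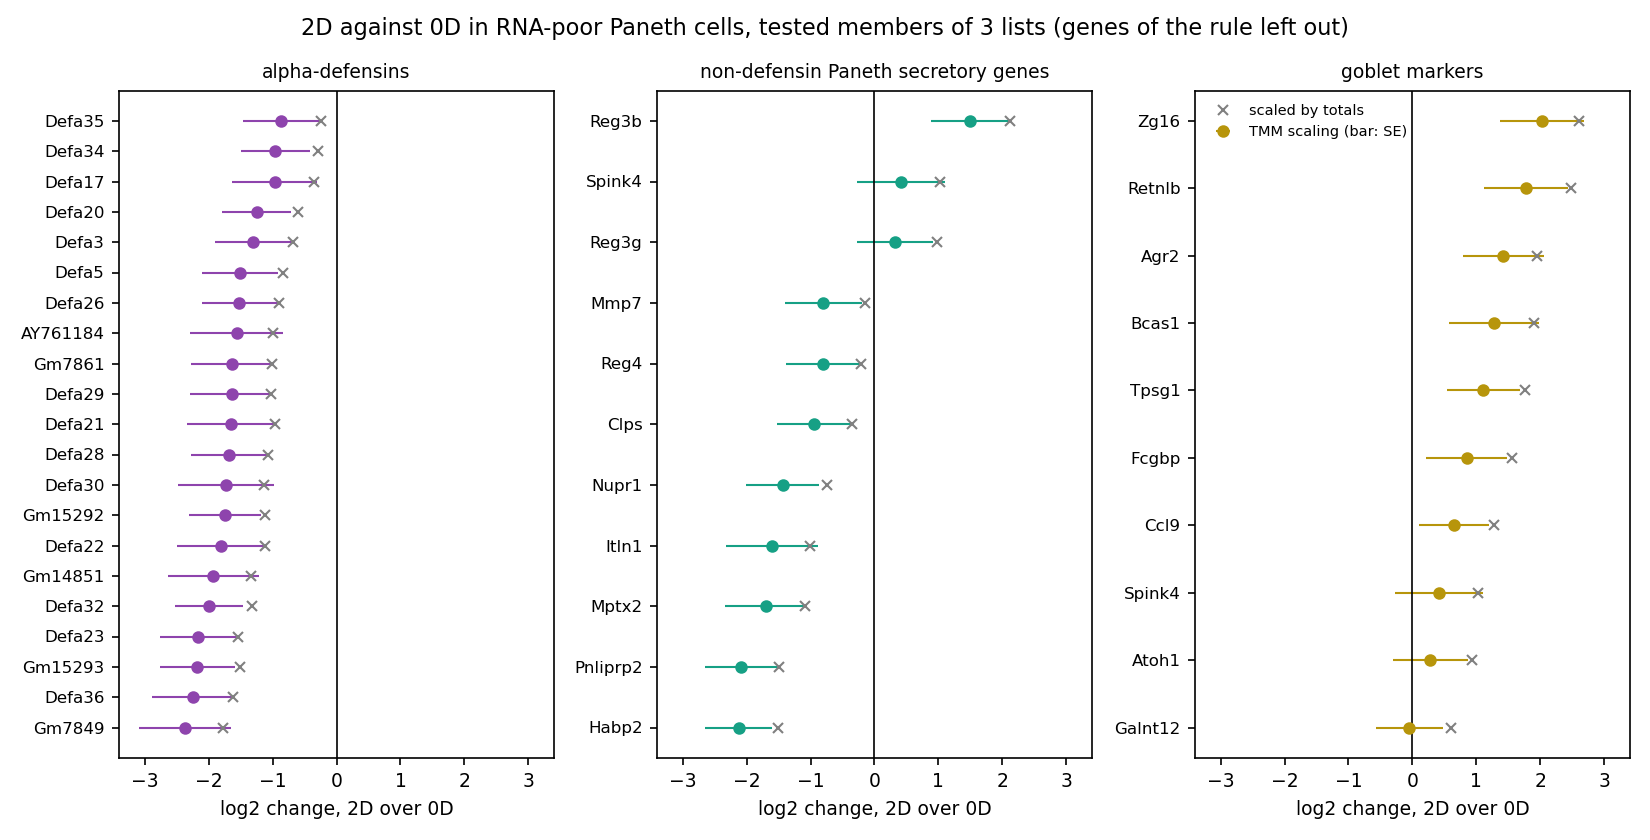
Log2 change of each tested gene, 2D over 0D, in RNA-poor Paneth cells with its standard error (edgeR, TMM), for the alpha-defensins, the other Paneth secretory genes and the goblet genes, with grey crosses for sums scaled by totals alone. All 21 defensin genes lie below 0 and 9 of 10 goblet genes lie above 0 under TMM.

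Stress, clock and hormone-response genes gave 1 call among their lists under TMM, Trp53inp1 of the p53 list. That list had 8 genes tested, and 0.26% of all genes were called lower. Immediate early and dissociation genes had 10 of 20 above 0, with a median of −0.08 (0.63 by totals). The chaperone Hspa8 had 764 and 1247 CPM in 2D against 188 and 265 CPM in 0D, not called under TMM (edgeR adjusted p = 0.31) and called by totals (edgeR adjusted p = 0.025). Antioxidant genes had 15 of 19 above 0 (median 0.36, and 0.98 by totals). Of 17 glucocorticoid-response genes 8 could be tested, with a median of 0.06 (0.73 by totals), and of 19 clock genes 3 could be. Klf9, a target of the glucocorticoid receptor, had 250 and 116 CPM in 2D against 88.9 and 168 CPM in 0D, which overlapped. Most clock genes were too low in members to be tested.

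Against RNA-rich cells the members showed a second contrast, one that the rule itself drew. Total UMIs set the bound and every gene counts towards them, so no test is read from it. Summed per library with library as a block, 207 genes were higher (1.9%) and 325 lower (2.98%) in members by edgeR, 4.88% of 10902, and 318 of the lower ones were outside the rule. Scaled by totals, 7679 were higher (70.4%) and 33 lower (0.303%), 70.7% in all, and the median of all genes moved by 1.44. Values are therefore given as levels. The defensins outside the rule took 7.29% to 21.3% of members' UMIs and 33.9% to 35.6% of those of RNA-rich cells. Defa35 had 52.0, 48.3, 79.1 and 48.5 CPM in members (2D-1 and 2D-2, then 0D-1 and 0D-2), against 300, 156, 208 and 196 CPM in RNA-rich cells of the same libraries. Clps had 787, 1689, 1789 and 1442 CPM in members, against 3279, 4810, 4250 and 3880 CPM in RNA-rich cells. Apoc2, an apolipoprotein that activates lipoprotein lipase, had 137, 148, 109 and 128 CPM in members, against 315, 244, 226 and 259 CPM. Each was lower in members of every library.

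Mitochondrial transcripts and the nuclear RNAs Malat1 and Neat1 took larger shares in members than in RNA-rich cells of every library. Of 4 nuclear-retained RNAs tested, these 2 had a TMM log2 change above 0, and Kcnq1ot1 and Gas5 had one below 0. Mitochondrially encoded genes took 10.7%, 3.74%, 8.21% and 8.47% of UMIs in members, against 1.69%, 1.03%, 1.30% and 1.08% in RNA-rich cells. Other cells under 5000 UMIs had 11.5%, 6.85%, 8.02% and 8.21%, so the members lay close to them in every library but 2D-2, where they were lower. Malat1, a long RNA retained in the nucleus, took 1.84%, 0.967%, 1.95% and 2.77% in members, against 0.190%, 0.172%, 0.128% and 0.166% in RNA-rich cells. Thinned to equal depth, members averaged 21.8, 10.8, 22.6 and 35.5 Malat1 UMIs. Other cells under 5000 UMIs averaged 34.7, 29.3, 32.7 and 31.0 at that depth. Members thus lay below the other shallow cells in every library but 0D-2, so high Malat1 was not particular to members. Neat1, which builds nuclear paraspeckles, had 4922, 1418, 1957 and 3113 CPM in members, against 344, 359, 270 and 321 CPM in RNA-rich cells. Lars2, a mitochondrial leucyl-tRNA synthetase whose locus collects ribosomal-RNA-like reads, had 1511, 973, 4486 and 3581 CPM in members, against 101, 110, 181 and 213 CPM. Fosb, an immediate early factor, had 920, 327, 464 and 428 CPM in members, against 64.9, 71.1, 65.1 and 66.9 CPM. Gip, the hormone of K cells, had 71.1, 1571, 3251 and 26.5 CPM in members, of which 1 cell of 0D-1 gave 325 of 329 UMIs and 1 cell of 2D-2 gave 416 of 1235.

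**Figure D5:**
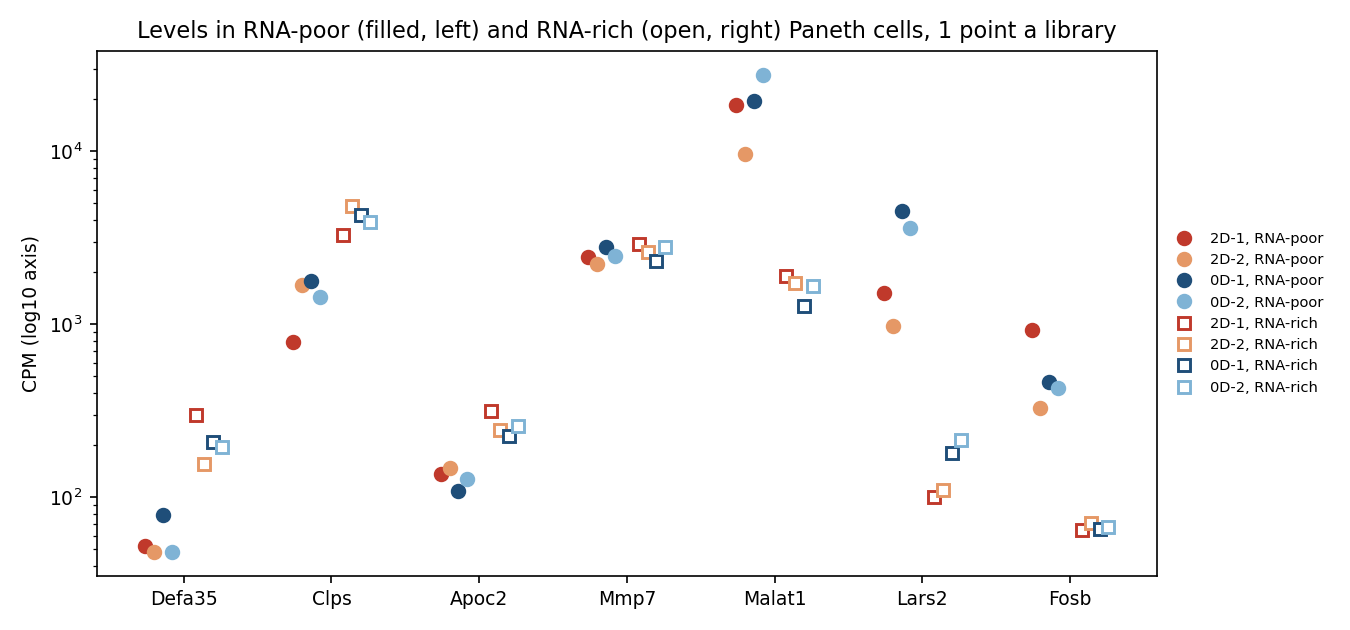
CPM on a log10 axis of 7 genes in RNA-poor cells (filled, left) and RNA-rich cells (open squares, right), 1 point per library with 2D libraries first. Clps lies at 787 to 1789 CPM in RNA-poor cells and 3279 to 4810 CPM in RNA-rich cells, and Malat1 is higher in RNA-poor cells of every library.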

How the data were processed

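Single-cell libraries of small-intestinal crypts, 2 labelled 2D and 2 labelled 0D, were used. The authors deposited raw UMI counts as whole numbers for 32285 features per barcode, with a smallest barcode of 500 UMIs. The submitters' processing notes name Cell Ranger 2.1.1 and mm10, while the file headers name cellranger 7.0.0. Whether strand or intron reads were used is not given in the sources used here.

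Counts of cells with at least 500 genes and at most 20% mitochondrial UMIs were scaled to 10000 per cell, log-transformed and standardised over all 29731 cells. The mean of 3 genes gave each of 7 scores. Raw counts were then summed per library and cell set (members had 576974 and 786175 UMIs in 2D and 101201 and 226760 in 0D). The sums were tested with edgeR 4.0.16 in R 4.3.3 (filterByExpr, TMM, quasi-likelihood, adjusted p under 0.05). The test was also run on simulated counts with the same spread setting for every gene. That run says little about the spread between these libraries. RNA-poor against RNA-rich sums had library as a block, and a set-by-group term tested the difference. Intervals are 95% exact binomial (Clopper-Pearson). Figures and sums used Python 3.11.15 with numpy 2.4.6, scipy 1.17.1 and pandas 2.3.3. DESeq2 1.42.0 was an alternative. Gene positions are GENCODE M21 on GRCm38.

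Members and gene lists were chosen with earlier results of these data known. Named genes were the 10 with the smallest p in each direction (mean of at least 50 CPM in the higher group) and members of the lists. The 21 genes of the rule stayed in the fits and the adjustment, and no test of them is given. Between pairs of libraries 20 to 32 deposited barcodes were shared, and 0 of these belonged to members in both libraries. In 2D-1, 6 members had a barcode also deposited in another library, against 0 in 2D-2, 0D-1 and 0D-2.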

Additional observations from a re-analysis of the deposited data

Results flagged for a closer look

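The change between 2D and 0D differed between RNA-poor and RNA-rich Paneth cells for 2 genes by the set-by-group term of edgeR's quasi-likelihood test. Gcg, the proglucagon gene of enteroendocrine L cells, had 22.5 and 73.8 CPM in 2D against 69.2 and 35.3 CPM in 0D among RNA-poor cells. Among RNA-rich cells it had 18.7 and 14.0 CPM in 2D against 1.61 and 2.25 CPM in 0D. The term was −3.19 ± 0.67 (SE) on the log2 scale with an edgeR adjusted p of 0.0109. The RNA-poor values overlapped between groups and rest on 13 and 58 UMIs in 2D, of which 20 lay in 1 cell of 2D-2, and on 7 and 8 UMIs in 0D.

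The gene model 2010007H06Rik had 6.93 and 3.82 CPM in 2D against 79.1 and 61.7 CPM in 0D among RNA-poor cells. Among RNA-rich cells it had 7.04 and 7.0 CPM in 2D against 9.91 and 8.65 CPM in 0D. The term was −3.49 ± 0.73 (SE), with an edgeR adjusted p of 0.0109. It rests on 4 and 3 UMIs in 2D and 8 and 14 UMIs in 0D.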

How the results depend on the processing

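The share of members among Paneth-rule cells was 10.7 percentage points higher in 2D and reversed to −2.71 at a score of at least 2; with scores standardised within each library it was 4.93, and the share of all cells kept 1.32 in place of 2.62 points higher. The difference in median mitochondrial share was −2.49 points and ran from −6.96 to 1.98 when 1 library was left out, reversing without 2D-2. Calls between 2D and 0D in members (13) moved to 5 at a bound of 4000 UMIs, 29 at 6000, 54 with at most 10% mitochondrial UMIs, 1 with at least 800 genes, 1 with scores standardised within each library and 0 with no filter on low counts (edgeR, 607 at an unadjusted p under 0.05). DESeq2 called 16. Leaving out 1 library gave 0 (without 0D-2) to 172 (without 2D-1), with 2 without 0D-1 and 100 without 2D-2. Calls against RNA-rich cells (532) became 130 with at most 10% mitochondrial UMIs, 258 with at least 800 genes, 933 with scores within each library, 1004 with no mitochondrial limit and 7712 scaled by totals, and ran from 72 (without 2D-1) to 1050 (without 2D-2), with 190 without 0D-2. Calls of the set-by-group term (2) became 0 at 4000 UMIs and with DESeq2, 1 at a score of at least 1.5 and with at least 800 genes, 4 with at most 10% mitochondrial UMIs and by totals, and 7 with scores within each library and with no mitochondrial limit, and ran from 0 (without 0D-1) to 32 (without 2D-1). Of 18 lists with at least 3 genes tested, 7 had a median above 0, against 4 with at most 10% mitochondrial UMIs, 4 of 14 with a score of at least 2, 13 with no filter or by totals, and 5 to 11 when 1 library was left out. Cck had a log2 change of 2.29, reversed to −2.64 with scores within each library, and Gip, at 2.27 against RNA-rich cells, reversed to −0.49 at a score of at least 2. The cause was not tested. The score of at least 2, no mitochondrial limit and totals were chosen after seeing the data.

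Whether libraries with the same number form pairs is not given in the labels. Their deviations from the group means had a correlation of 0.0415. With 2 libraries per group the crossed value only turns its sign, so the correlation cannot decide this. The fit with a replicate block called 25 genes between 2D and 0D, and 5 lists then had a median above 0.

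The 0D libraries held 32 and 84 members, which limits the precision of every 0D value.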

Other observations

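Some epithelial surface and differentiation genes were among those with the smallest p between 2D and 0D in RNA-poor Paneth cells, without passing under TMM. Anxa2, a membrane-binding annexin, had 180 and 169 CPM in 2D against 9.88 and 30.9 CPM in 0D (log2 2.31 ± 0.65 SE, edgeR adjusted p = 0.070, and 0.0091 by totals). Ceacam1, a cell adhesion molecule of the epithelial surface, had 411 and 146 CPM in 2D against 49.4 and 39.7 CPM in 0D (edgeR adjusted p = 0.11, and 0.0075 by totals). Krt20, a keratin of differentiated intestinal epithelium, had 98.8 and 85.2 CPM in 2D against 9.88 and 13.2 CPM in 0D (edgeR adjusted p = 0.205). Id1, an inhibitor of bHLH factors that BMP signalling induces, had 90.1 and 100 CPM in 2D against 9.88 and 13.2 CPM in 0D (edgeR adjusted p = 0.17). These 4 genes were picked for a small p, so the gap between their groups is no separate result. Each 0D value of 9.88 CPM is 1 UMI. Krt20 and Id1 passed the low-count filter through the 2D libraries only.

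In RNA-poor cells of every library Hbegf, a ligand of the EGF receptor, and Errfi1, a feedback inhibitor of that receptor, stood above their level in RNA-rich cells. Hbegf had 224 and 95.4 CPM in 2D and 39.5 and 35.3 CPM in 0D, against 10.97 to 14.7 CPM in RNA-rich cells. Errfi1 had 147 and 73.8 CPM in 2D and 49.4 and 74.97 CPM in 0D, against 10.7 to 12.3 CPM in RNA-rich cells. Other cells under 5000 UMIs were not compared for these genes. CPM are scaled by totals, and on that scale 10619 of 10881 genes outside the rule lay higher in members. The log2 changes by totals were 2.86 for Hbegf and 2.89 for Errfi1, beside a median of 1.44 for all genes. Both genes were picked for a small p in a contrast that the rule drew, so their higher level is no separate result. Tmed6, a cargo receptor of the early secretory pathway, was picked in the same way. It had 41.6 and 84.0 CPM in 2D and 79.1 and 66.1 CPM in 0D, against 120 to 162 CPM in RNA-rich cells.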
